A study of Mus musculus with 150 samples.

Results

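The bins of mouse chromosome 11 are the 238 consecutive stretches of that chromosome for which the log2 ratio table gives a value in each single tumour cell, out of 5331 bins on all chromosomes and 4806 on the autosomes. They were taken by their chromosome name alone, and all 238 passed the filter on missing values. They run from chr11:3100001-121982543 in GRCm38, with a median length of 498.863 kb and 1 gap of 136.498 kb. The chromosome was divided at 99 Mb, a position known from earlier results of these data. This gave 192 bins before it, over 95.9 Mb, and 46 bins after it, over 22.9 Mb.

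Genomic DNA of 150 single cells was sequenced, 50 from each of the tumours T1, T7 and T9, which were dissected one by one from the lung of 1 mouse, animal M3, 30 weeks after tumour induction. Per the labels, the mice were of mixed C57BL/6 x Sv129 background and carried Trp53 flox/flox, a p53 gene that Cre deletes, with Rosa26 LSL-tdTomato or Rosa26 LSL-Luciferase as a Cre-dependent reporter. A further engineered conditional allele of these KP mice is not described here. Tumours were induced with an adenovirus that makes Cre from the SPC promoter (AdSPC-Cre), active in the alveolar type 2 (AT2) cells named as the source, or with AdCMV-FlpO, and the labels do not say which reporter or virus this animal had. All 3 tumours share that genotype, age and host, so no group is an untreated or normal control, and each group is 1 tumour. The labelled cell type has no RNA markers in DNA data and was not checked. Quality filters kept 47, 48 and 50 cells of T1, T7 and T9, in that order. Cells of 1 tumour share their source and are not replicates of a condition, so no test between tumours is given, and SDs and exact 95% binomial (Clopper-Pearson) intervals describe cells within a tumour and counting error only.

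A log2 ratio compares the reads in a bin with those of a reference, which the sources used here do not name. Each cell is centred on its autosomal median, so 0 is the middle value of its autosomal bins, and a whole-genome doubling cannot be seen. That 0 need not be a cell's commonest level. With each cell centred on its commonest level instead, T1 stood at -0.30 before and -0.24 after 99 Mb, against -0.19 and -0.14 with the median. Tumour cells often gain or lose part of a chromosome arm after a break, and a break carried by many cells of a tumour at the same position is commonly read as one inherited from a shared ancestor. Mouse chromosome 11 has its centromere at the start, and its later part is the counterpart of human chromosome 17, with the genes of p53, ERBB2 and BRCA1. A level at or below -0.415, the log2 of 1.5 over 2 copies, was called lost, and a level at or above 0.3219, the log2 of 2.5 over 2, gained.

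The edge that most T9 cells shared lay between the bins chr11:98536010-99034871 and chr11:99034872-99533734. The protein-coding genes nearest to it were Top2a (chr11:98992947-99024199, minus strand), whose product untangles DNA in mitosis, and Igfbp4 (chr11:99040005-99052655, plus strand), which encodes a binding protein of insulin-like growth factors. Top2a ended 10.7 kb before the edge and Igfbp4 began 5.13 kb after it. Their promoters, from 250 bases before to 50 bases after the start site used, are shown because these genes are the nearest on either side. The start sites used lay 10.7 kb and 6.37 kb from the edge, and the span of Igfbp4 begins before the one used for it. RefSeq on GRCm38.p6 gives the Top2a promoter at chr11:99024140-99024439 and the Igfbp4 promoter at chr11:99040994-99041293, printed 5′ to 3′ on the gene's strand with each CG in capitals.
Top2a: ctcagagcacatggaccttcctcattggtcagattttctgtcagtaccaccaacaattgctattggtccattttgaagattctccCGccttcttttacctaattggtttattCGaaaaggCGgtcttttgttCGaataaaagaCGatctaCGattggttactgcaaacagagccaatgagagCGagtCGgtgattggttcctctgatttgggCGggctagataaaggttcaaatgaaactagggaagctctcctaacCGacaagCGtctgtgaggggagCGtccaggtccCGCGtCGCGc
Igfbp4: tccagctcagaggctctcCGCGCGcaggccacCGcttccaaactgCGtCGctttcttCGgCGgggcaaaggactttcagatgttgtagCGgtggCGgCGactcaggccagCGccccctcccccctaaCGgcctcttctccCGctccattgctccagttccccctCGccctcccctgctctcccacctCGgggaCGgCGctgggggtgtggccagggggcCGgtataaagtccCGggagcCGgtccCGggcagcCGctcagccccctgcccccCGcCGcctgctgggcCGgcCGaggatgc
The dinucleotide CG reads the same on both strands and occurred 16 times in the first and 27 times in the second, whose GC contents were 47.7% and 71.3%. Among 2289 RefSeq promoters of chromosome 11 of that length, 96.5% held at least 1 CG and the median was 10. The bins are far longer than these promoters, so the edge is known to the bin and not to the base, and the sequence at the junction itself was not analysed here.

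On the deposited ratio, chromosome 11 was level across its first 95.9 Mb in T9 and dropped at a single position, while T7 stayed near 0 along its whole length and T1 lay below 0 along nearly all of it, which the depth ratios described below did not show. In T9 the 192 bins before 99 Mb had a median log2 ratio of 0.02 over 50 cells (SD 0.15, range -0.30 to 0.78), and the 46 bins after it a median of -0.54 (SD 0.21, range -0.92 to 0.23). The part after 99 Mb was called lost in 41 of 50 T9 cells, 82% (68.6% to 91.4%), and the part before it in 0 of 50, which allows a share of up to 6% counted as 3 of the 50 cells, or 7.11% by the exact interval. At a stricter threshold of -0.7 the share lost after 99 Mb was 8%. The difference between the sides, after minus before, had a median of -0.56 in T9 (SD 0.16, range -0.92 to -0.04) and was below 0 in 50 of 50 cells. That median corresponds to 0.678 of the reads before the edge on a linear scale. For orientation, 2 of 3 copies would give -0.585, 3 of 4 copies -0.415 and 1 of 2 copies -1, and which of these copy numbers the cells had was not tested.

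In T7 the median was -0.03 before 99 Mb (SD 0.10, range -0.43 to 0.05) and -0.02 after it (SD 0.11, range -0.49 to 0.14) over 48 cells. The difference between the sides was 0.01 (SD 0.04, range -0.07 to 0.13), below 0 in 17 of 48 cells. The T7 cells therefore lay on either side of no difference, and 1 cell, 2.08% (0.0527% to 11.1%), was called lost on each side. The lowest T7 difference of -0.07 was above that of all T9 cells but 1.

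The 47 T1 cells had a median of -0.19 before 99 Mb (SD 0.15, range -0.75 to 0.11) and -0.14 after it (SD 0.16, range -0.70 to 0.22). Their difference was 0.05 (SD 0.04, range -0.02 to 0.14), below 0 in 3 of 47 cells, so the sign was opposite to that of T9. Both sides were called lost in 3 of 47 T1 cells, 6.38% (1.34% to 17.5%). The low T1 level depended on how the ratio was made. With a ratio computed from the deposited read depth alone, against the median of all kept cells, the T1 level was -0.01 before and 0.25 after 99 Mb, and against the T7 cells it was 0.02 and 0.20. On the deposited log2 ratio chromosome 11 as a whole had rank 3 from the lowest of the 19 autosomes in T1, at -0.188. Chromosomes 7, 15 and 10 lay next to it at -0.188, -0.183 and -0.182, while chromosome 9, at rank 2, stood at -0.565. With the depth ratios chromosome 11 stood at ranks 10 and 11, at 0.04 and 0.06. No direction is therefore drawn for the T1 level, whereas over all alternatives the T9 difference stayed between -0.62 and -0.51.

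**Figure D1:**
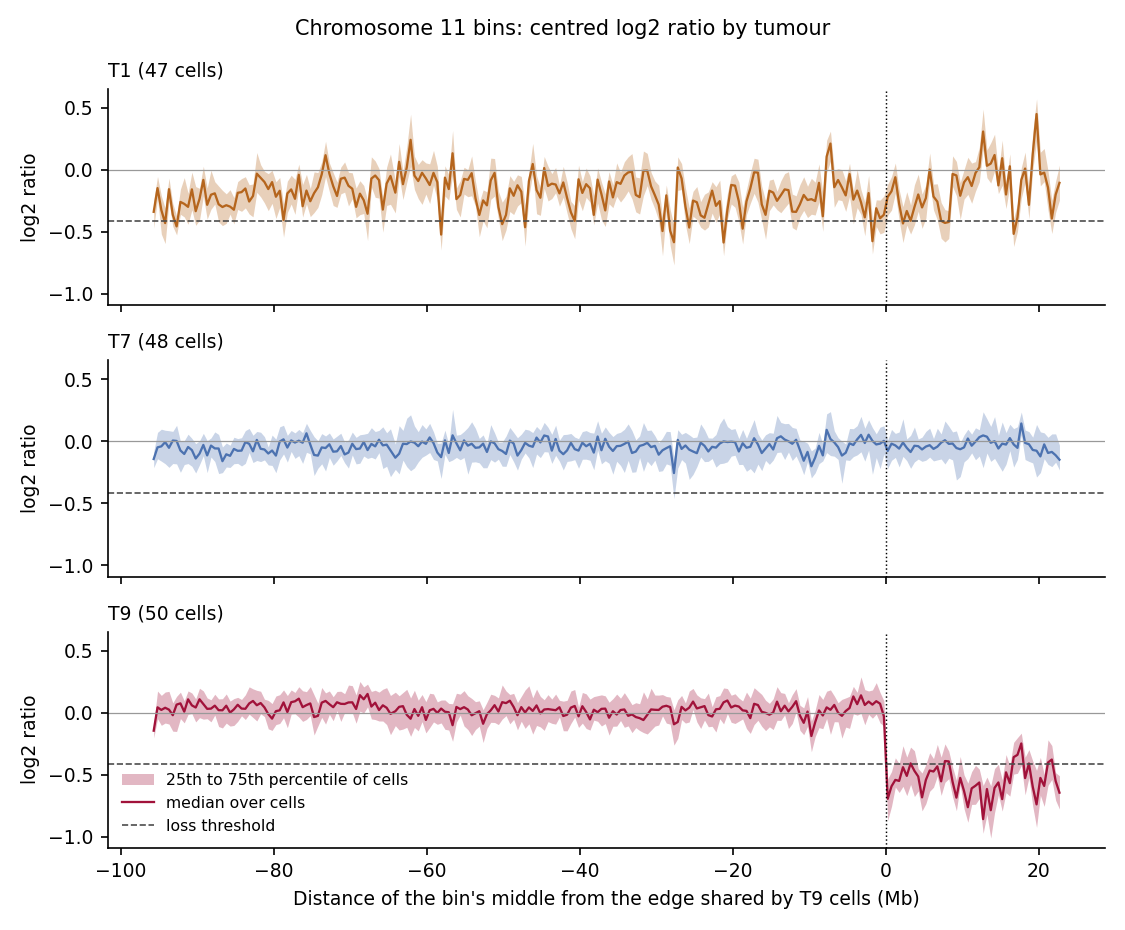
Centred log2 ratio of each of the 238 chromosome 11 bins in T1, T7 and T9, plotted against the distance of the bin's middle from the edge shared by T9 cells in Mb. Lines are medians over cells, bands run from the 25th to the 75th percentile of cells, and the dashed line is the loss threshold of -0.415. The T9 line lies near 0.02 before the edge and near -0.54 after it, T7 stays near 0, and T1 varies from bin to bin around -0.19 before the edge.

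The raw read depth, before any correction, showed the same contrast for T9. Depth was low, with a median per cell of 0.0384 reads per base in T1, 0.0269 in T7 and 0.0221 in T9, so each cell had a median of 4.27, 3.00 and 2.53 Mb of sequenced bases on chromosome 11. Mean depth after 99 Mb over that before it was 0.648 in T9 (SD 0.08, range 0.560 to 0.995). The same ratio was 0.993 in T7 (SD 0.07, range 0.905 to 1.20) and 1.15 in T1 (SD 0.07, range 0.979 to 1.32). All but 1 of the 50 T9 cells lay below the lowest T7 cell. The T9 median was 0.652 of the T7 median, a log2 of -0.62.

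On the deposited ratio, the spread among T9 cells was wider than the noise of the bins would give. Bin noise alone, from differences between neighbouring bins, would give the T9 level after 99 Mb an SD of 0.02, and the observed SD was 10.6 times that. Before 99 Mb the observed SD was 15.6 times the noise in T9, 9.13 times in T7 and 10.9 times in T1. The difference between the sides spread less in T1 and T7, at 1.27 and 1.69 times the noise, than in T9, at 7.12 times. The noise SD here is that of a mean over bins, whereas the levels are medians, which vary more under normal noise. These multiples are therefore somewhat too high, and no spread beyond the noise is read from 1.27 in T1. With the depth ratios the SD of the difference was 0.08 in T1 under both references, 0.11 in T7 and 0.16 and 0.15 in T9. Within T9 the level before and the level after 99 Mb correlated over the 50 cells with Pearson's r of 0.67 and Spearman's rho of 0.65, a description of values that share each cell's library and centring.

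Of the 50 T9 cells, 9 were not called lost after 99 Mb, and most of these still dropped there. Cells 180114 at -0.45 and 180103 at -0.43 lay just inside the threshold, and cells 180104 at -0.40 and 180101 at -0.38 just outside it. The other seven were cell 180127 at -0.32, 180137 at -0.20, 180112 at -0.19, 180145 at -0.18, 180111 at -0.03, 180116 at 0.02 and 180109 at 0.23. Of these 9 cells, 8 had a break within 5 Mb of 99 Mb, and all 9 had a level above 0 before it, with a median of 0.11 against 0.02 in the cells called lost. Cell 180116 stood highest before 99 Mb, at 0.78, and dropped by 0.76, so its level after the drop was near 0. Cell 180109 was the exception, with 0.27 before, 0.23 after and a difference of -0.04. The difference itself was at or below -0.415 in 41 of 50 cells and at or below -0.3 in 46. Without cells 180109 and 180116, a removal chosen after seeing the data, the T9 median stayed at -0.56 and its range became -0.92 to -0.18.

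**Figure D2:**
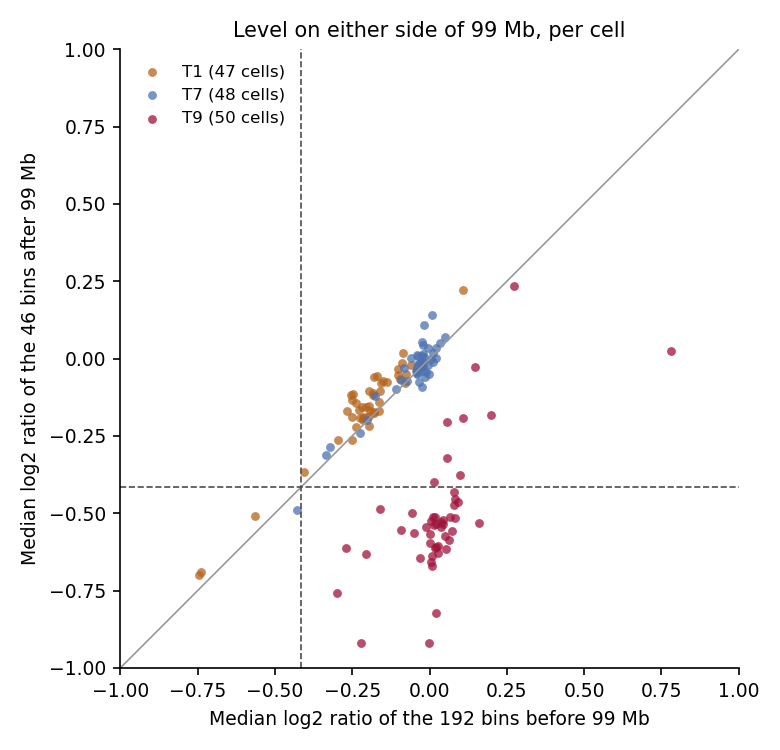
Each point is 1 cell, with its median log2 ratio over the 192 bins before 99 Mb on the horizontal axis and over the 46 bins after it on the vertical axis. The grey line marks equal levels and the dashed lines the loss threshold of -0.415. T1 and T7 cells follow the line of equal levels, and the T9 cells lie below it, with cell 180109 nearest to it at a difference of -0.04.

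Breaks were found in each cell by least-squares segmentation with segments of at least 5 bins and 10 Mb. At least 1 break was found in 49 of 50 T9 cells, 98% (89.4% to 99.9%), in 33 of 47 T1 cells, 70.2% (55.1% to 82.7%), and in 20 of 48 T7 cells, 41.7% (27.6% to 56.8%). In T9, 35 cells had exactly 1 break, 10 had 2, 3 had 3, 1 had 4 and 1 had none. In T1, 14 cells had none, 17 had 1, 12 had 2 and 4 had 3. Of the T7 cells, 28 had none, 9 had 1, 5 had 2, 5 had 3 and 1 had 5. Single breaks thus made up most T9 profiles, and an unbroken chromosome was the commonest state in T7. The T1 and T7 shares moved with the penalty for a break, to 89.4% and 62.5% at the lower penalty and to 19.1% and 10.4% at the higher one, and with the depth ratios they rose to 97.9% in T1 and to 93.8% and 64.6% in T7.

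The breaks of T9 were large and sat at one place. All 68 T9 breaks together had a median size of 0.54 on the log2 scale, against 0.23 for the 53 of T1 and 0.18 for the 39 of T7. Breaks of at least 0.3 numbered 52 of 68 in T9, in 47 cells. They numbered 8 of 53 in T1, in 7 cells, and 7 of 39 in T7, in 5 cells. A break fell exactly between the bins that meet at chr11:99034872 in 45 of 50 T9 cells and within 1 bin of that edge in 48. In T1 and T7 the count within 1 bin of the edge was 0 of 47 and 0 of 48, which allows shares of up to 6.38% and 6.25% counted as 3 cells, or 7.55% and 7.40% by the exact interval. Within 5 Mb of 99 Mb a break was found in 49 of 50 T9 cells, 98%, against 6 of 47 T1 cells, 12.8% (4.83% to 25.7%), and 1 of 48 T7 cells, 2.08%. That T7 share was 35.4% with the depth ratio against all cells, a reference that itself holds the T9 loss. Every T9 break between 95 and 100 Mb, 1 in each of 48 cells, was a fall, with a median of -0.57.

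A single best break was also fitted to each cell, with at least 5 bins on each side and no minimum step. It fell at chr11:99034872 in 43 of 50 T9 cells and took only 7 distinct positions among them. It explained a median of 66.9% of the variance of the 238 bins in T9 (range 2.99% to 85.7%), against 5.26% in T1 and 3.29% in T7. In T7 the best break took 37 distinct positions over 48 cells, and no position was the best one in more than 4 of them. For the T9 median profile the best break was at the same bin and explained 91.1% of the variance, against 8.20% for T1, at chr11:107515533, and 4.23% for T7, at chr11:19571255.

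**Figure D3:**
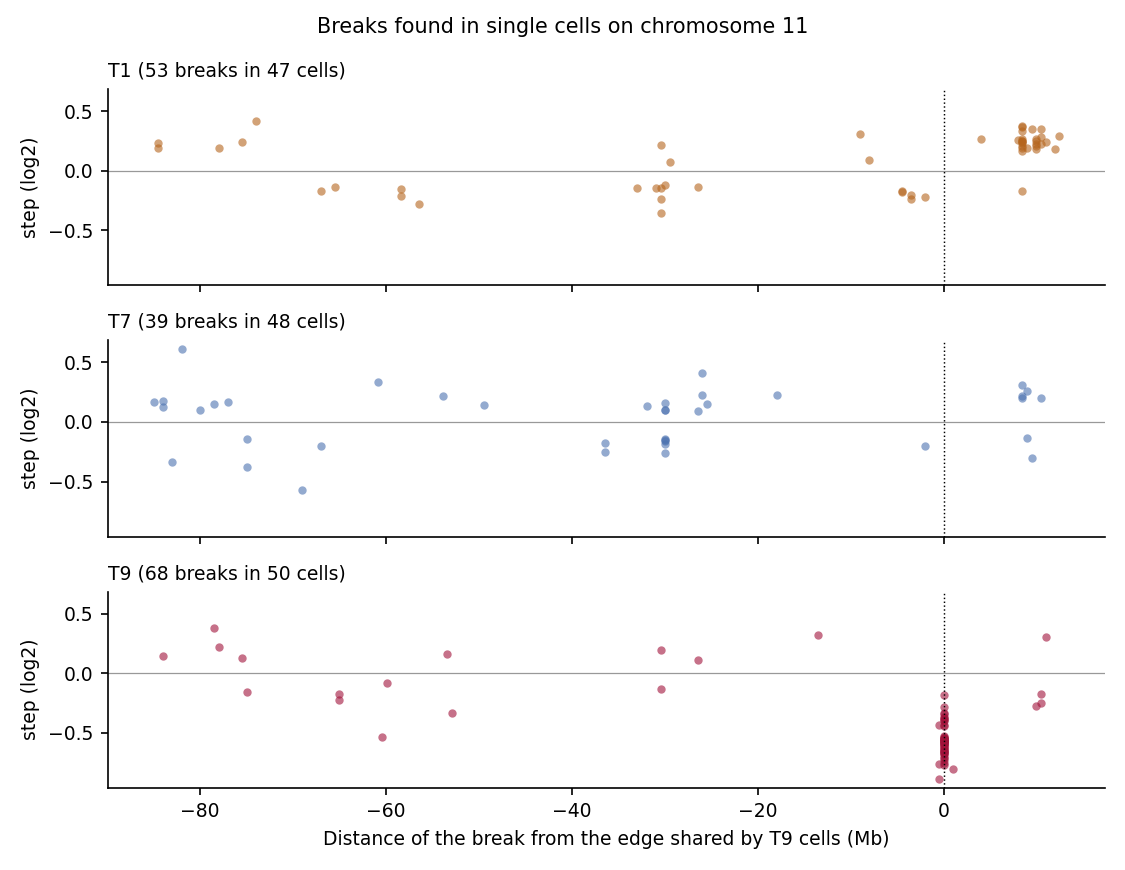
Every break found in single cells, with its distance from the edge shared by T9 cells in Mb on the horizontal axis and the step in log2 ratio, after minus before the break, on the vertical axis. T9 has a column of falls at the edge, with a median of -0.57 between 95 and 100 Mb. T1 has a group of small rises later on the chromosome, at 105 to 110 Mb, with a median of 0.25 over 23 cells.

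At the edge, the 8 nearest bins changed in T9 from 1 bin to the next. The 4 bins before it had T9 medians of 0.06, 0.09, 0.07 and -0.03, and the 4 after it -0.70, -0.59, -0.54 and -0.55. The last bin before the edge, which holds Top2a, was below 0 in 27 of 50 T9 cells, and the first bin after it, which holds Igfbp4, in 48 of 50. The first bin after minus the last bin before had a median of -0.70 in T9, below 0 in 50 of 50 cells (range -1.31 to -0.18). Even cell 180109, with no break called, was thus lower in the first bin after the edge than in the bin before it. In T7 the same difference was -0.07, below 0 in 32 of 48 cells (range -0.52 to 0.41), and in T1 0.09, below 0 in 16 of 47 cells (range -0.38 to 0.99).

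Over whole sides, the T9 bin medians did not overlap. The lowest of the 192 bins before the edge was at -0.19, and the highest of the 46 after it at -0.25. The place of the division was already known from these data, so this separation describes the drop and is no test of it. Bins of T9 after the edge varied more among themselves than bins before it, with SDs over the bin medians of 0.13 and 0.05. T7 had SDs of 0.05 on both sides, and T1 of 0.14 before and 0.20 after. The lowest T9 bin was chr11:111506433-112005294 at -0.86, and the highest after the edge was chr11:116495057-116993918 at -0.25. In T1 the same bins stood at 0.31 and -0.08, and in T7 at 0.05 and 0.14, so their order in T9 was the reverse of that in T1.

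A bin was called in a tumour when it lay inside a called segment in at least 20% of that tumour's cells. By this rule, 46 of 46 bins after the edge and 0 of 192 before it were lost in T9, which is 19.3% of the chromosome's bins, against 4.2% of the 4806 autosomal bins of T9. The 46 bins made up 22.8% of all bins that T9 lost. No chromosome 11 bin was gained in T9, where 7.07% of autosomal bins were. In T1, 0 of 238 bins were called lost and 0 gained, against 20.1% and 11.7% of its autosomal bins. In T7 the counts were likewise 0 and 0, against 2.52% and 13.6%. The bin lost in most cells reached 44 of 50 cells in T9, 5 of 47 in T1 and 3 of 48 in T7.

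Other losses and gains of chromosome 11 were called in few cells. In T1, 7 cells held 8 lost and 2 gained segments. Cell 180017 was lost along the whole chromosome at -0.72, cell 180006 at -0.59 up to 32.0 Mb and -0.76 beyond, and cell 180033 at -0.53 up to 66.1 Mb and -0.67 from there to 107.516 Mb. These are the T1 cells called lost on both sides of 99 Mb, but with the depth ratios 0 of 47 T1 cells were lost after it and 4.26% before it. Cell 180039 of T1 was gained, at 0.40 from 25.1 to 42.7 Mb and at 0.38 from 109 Mb to the end.

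In T7, 4 cells held 5 lost segments and none was gained. Cell 180070 had lost only the start, at -0.63 up to 17.1 Mb. Cell 180094 was lost from 30.1 Mb to the end, at -0.63 and then -0.48 from 73.6 Mb. The called segments differed in their bounds, but some bounds recurred in other T7 cells. The lost segment of cell 180085, from 62.6 to 73.1 Mb at -0.51, had the same bounds as a dip to -0.25 in cell 180086 that was not called. In cell 180090 the lost segment, at -0.43, ended at 69.1 Mb, and 9 T7 cells had a break between 65 and 70 Mb.

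Among T9 cells, 14 had more than 1 break. Cells 180101, 180104 and 180113 fell a second time near 109 Mb, by 0.28, 0.25 and 0.17 on the log2 scale. Cell 180127 instead rose there, from -0.50 to -0.19 from 110.0 Mb on. Before the edge, cell 180117 fell from 0.31 to -0.23 at 38.7 Mb and cell 180135 from 0.12 to -0.21 at 46.2 Mb. In cell 180148 the chromosome stood at -0.32 up to 85.6 Mb, at 0.00 from there to the edge and at -0.76 after it.

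The bins after the edge also differed by how many genes they held. They listed a median of 10 genes per bin, against 6 before 99 Mb, while the deposited bin weights were alike, with medians of 0.80 on both sides. Over the 46 bins, the T9 median level correlated with the number of genes with Spearman's rho of 0.66, the T1 level with -0.63 and the T7 level with -0.25. Over the 192 bins before 99 Mb rho was 0.17 in T9, -0.44 in T1 and 0.20 in T7. The T1 relation was not particular to chromosome 11. Over whole autosomes T1 rho ran from -0.48 on chromosome 19 to 0.01 on chromosome 6, with chromosome 11 at -0.45. In T9 it ran from -0.25 on chromosome 17 to 0.24 on chromosome 7, with chromosome 11 at -0.01. For T9 the whole-chromosome value joins both sides of the edge, so it is not the measure taken over the 46 bins. Whether the T9 rho of 0.66 is particular to these bins is therefore not shown. Bins with over 10 genes lay higher than the others in T9, at -0.50 against -0.60, in 41 of 50 cells, and lower in T1, at -0.24 against -0.07, in 43 of 47 cells. In T7 both kinds lay at -0.03 and -0.02. These relations depended on the ratio used. With the depth ratios, rho over the 46 bins was 0.35 and 0.48 in T9 and -0.09 and -0.05 in T1, and the T1 difference between the kinds of bin turned from -0.19 to 0.01 and 0.04. In T9 the difference of 0.08 became 0.04 and 0.05. Before 99 Mb the sign of rho turned with the depth ratios, to -0.44 and -0.51 in T9 and to 0.39 and 0.36 in T1.

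**Figure D4:**
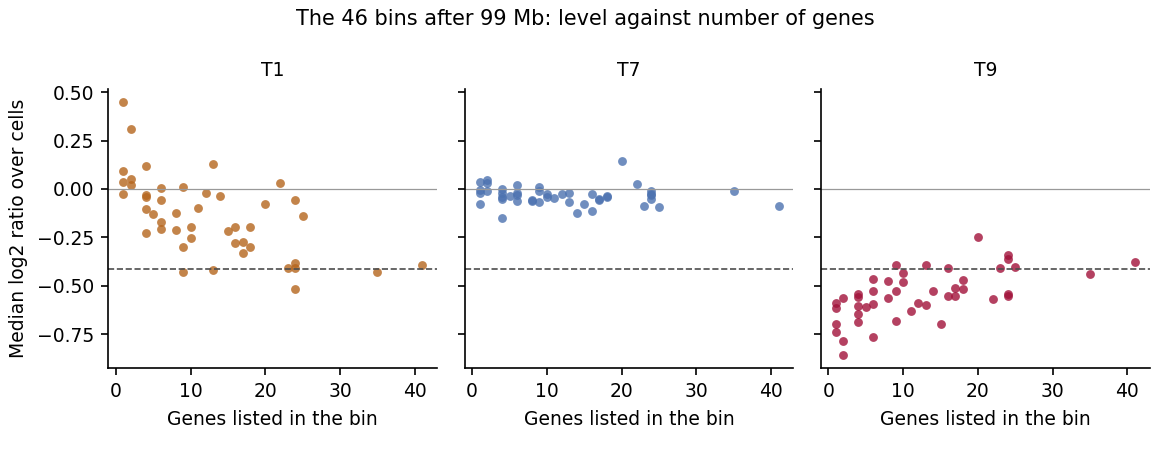
The 46 bins after 99 Mb, with the number of genes each lists on the horizontal axis and its median log2 ratio over the cells of the tumour on the vertical axis. The dashed line is the loss threshold of -0.415. On this deposited ratio T9 bins with more genes lie higher (rho 0.66), T1 bins with more genes lie lower (rho -0.63), and T7 bins lie near 0.

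Divided by position into stretches chosen after values were seen, the first 17 bins after the edge held 15.1 genes each on average. The next 15 held 4.47 and the last 14 held 17.2. T9 levels over these stretches were -0.51, -0.62 and -0.50. In T1 they were -0.28, -0.03 and -0.11, and in T7 -0.04, -0.00 and -0.04. The second stretch was above the first in 45 of 47 T1 cells, by a median of 0.27, and below it in 39 of 50 T9 cells, by a median of -0.12. T1's group of rises at 105 to 110 Mb, 22 up and 1 down in 23 cells, fell at the start of the gene-poor stretch. With the depth ratios the strongest break of the T1 median profile lay elsewhere, at 49.6 Mb. In T7 the 7 cells with a break at 105 to 110 Mb had 5 rises, and in T9 the 3 such cells had falls.

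Of 1609 protein-coding RefSeq genes placed on the chromosome by their midpoint, 476, or 29.6%, lay after the edge. The first bin after it held 15: Igfbp4, Tns4, the chemokine receptor gene Ccr7, the chromatin remodelling gene Smarce1, and 11 genes of the keratin family, from Krt222 through Krt10 to Krt39. A gene's level here is the mean of the segment around it, so it is the level of a long stretch and says nothing of the gene's expression. From 7 lists of 79 genes, 79 were placed, 42 before and 37 after the edge. All 37 after it lay in a lost segment in at least 20% of T9 cells, in 41 to 44 of 50, and 0 of 42 before it did, as their positions in the called bins fix. No listed gene reached 20% of the cells in T1 or T7.

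Among 20 genes of receptors and growth signalling, 11 lay before the edge and 9 after it. Egfr, the epidermal growth factor receptor, was the first by position, with a T9 level of 0.02 (SD 0.16, n = 50 cells), and Erbb2, a receptor of the same family 0.61 Mb before the edge, was also at 0.02 (SD 0.15). Rara, a retinoic acid receptor in the last bin before the edge, was in a lost segment in 2 of 50 cells. After the edge, Stat3, Stat5a and Stat5b, which carry cytokine signals to the nucleus, lay at -0.56 and were lost in 42 of 50 T9 cells. Etv4, Map3k3, Prkca, Mpp3 and Ddx5 were each lost in 42 cells, and Grb2, an adaptor between receptors and the RAS pathway and the last by position, in 43. In T1 these 9 genes were lost in 2 to 5 of 47 cells and in T7 in 1 of 48.

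Of 17 tumour suppressors and DNA repair genes, 13 lay before the edge and 4 after it. Npm1 came first by position. Trp53, the gene that is floxed in these mice, lay 29.4 Mb before the edge at 0.02 in T9, and its segment was lost in 0 of 50 T9, 5 of 47 T1 and 2 of 48 T7 cells. A bin is much longer than that gene, so these levels do not show whether Cre deleted it. Brca1, needed for repair of DNA breaks, lay 2.49 Mb after the edge at -0.56 in T9 and was lost in 42 of 50 cells. Axin2, a brake on WNT signalling, was lost in 42, Prkar1a, the regulatory subunit of protein kinase A, in 44 and Socs3, a brake on STAT3 signalling and the last by position, in 43.

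Mitosis and replication genes were split, with Aurkb, Spag5, Cdc6 and Top2a before the edge and Tubg1, Cdc27, Tk1 and Birc5 after it. Aurkb, a kinase of the chromosomal passenger complex, was lost in 0 of 50 T9 cells, and Birc5, the survivin subunit of the same complex, in 43. Top2a and Cdc6, which loads the replication helicase, shared the last bin before the edge and were lost in 2. Tubg1 and Cdc27 were lost in 42 and Tk1 in 43.

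Of 11 chromatin genes on a list made by hand, 10 lay after the edge, where 29.6% of all protein-coding genes lie, and nothing is read from that share. The histone demethylase gene Kdm6b was the first by position and the only one before the edge. The remodelling subunit gene Smarce1 was nearest to the edge, 0.19 Mb after it, and was lost in 41 of 50 T9 cells. Kat2a, Ezh1, Hdac5, Smarcd2 and Bptf were lost in 42 cells. Jmjd6 and the Polycomb genes Cbx2 and Cbx8 were lost in 43.

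Lung and epithelial genes included 6 of 9 after the edge, where 29.6% of all protein-coding genes lie, and nothing is read from that share. The keratin genes Krt15, Krt19 and Krt17, which share a bin, lay within 1.22 Mb after the edge and were lost in 42 of 50 T9 cells. Sox9, a factor of the developing lung tip, Foxj1, which drives motile cilia, and Itgb4, an integrin of the basement membrane contact, were lost in 43. Scgb3a1, a secretory cell gene and the first by position, Cldn7 and Itga3 lay before the edge. Of the 4 genes on the list named mesenchymal and matrix, Sparc and Col1a1 lay before the edge. Timp2 and Evpl, an epithelial gene despite its place on that list, lay after it and were lost in 43. Of 10 immune genes, 8 lay before the edge, from Il4 on, as did 1133 of all 1609 protein-coding genes, with Cd300a and Cd7 after it and lost in 43 of 50 T9 cells.

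The chromosome 11 edge was among the most widely shared of the T9 autosomes. Counted within 1 bin, the most shared edge of each autosome ranked chromosome 2 first with 100% of T9 cells, chromosome 9 next with 98% and chromosome 11 at rank 3 with 96%. The chromosome 2 edge was also found in 85.1% of T1 and 95.8% of T7 cells at the same bin, whereas the chromosome 11 edge was found in 0 cells of either. For the other tumours the most shared chromosome 11 edge was another one, at chr11:107515533 in 29.8% of T1 cells and at chr11:68604265 in 16.7% of T7 cells. By the variance that 1 break explained in the median profile, T9 chromosome 11 came second at 91.1%, after chromosome 9 at 94.3% and before chromosome 6 at 90.4%.

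**Figure D5:**
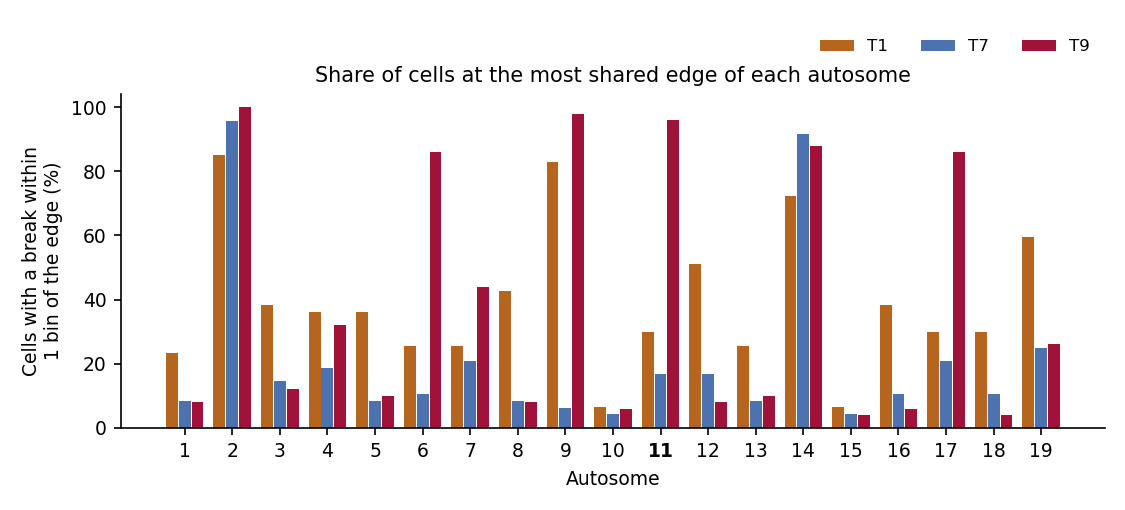
Share of cells in percent with a break within 1 bin of the most shared edge of each autosome, by tumour, with chromosome 11 in bold. The edge may lie at a different bin in each tumour. Chromosome 11 stands at 96% in T9, 29.8% in T1 and 16.7% in T7.

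T9 cells in which the end of chromosome 11 was called lost also had calls for other changes of that tumour. Chromosome 9 beyond chr9:47252284 was called lost in 41 of the 41 cells with the chromosome 11 loss called. It was called lost in 6 of the 9 cells without that call. The start of chromosome 9 was called gained in 40 of 41 and 5 of 9. Distal chromosome 6 was called gained in 35 of 41 and 6 of 9, and distal chromosome 17 in 21 of 41 and 1 of 9. The distal chromosome 17 level had a median of 0.313 over the 50 T9 cells (SD 0.15). That median lies just below the gain threshold of 0.3219, so the call cuts near the middle of these levels. Of the 9 cells without the chromosome 11 call, 8 still had a break within 5 Mb of 99 Mb. These counts therefore depend on thresholds, and whether T9 holds separate groups of cells was not tested. Over the 50 T9 cells, the size of the chromosome 11 difference correlated with that of chromosome 9, whose median was -1.08 (SD 0.25), with Pearson's r of 0.72 and Spearman's rho of 0.55. Without cells 180109 and 180116 these were 0.61 and 0.49 over 48 cells. The correlation was -0.62 by Pearson and -0.49 by Spearman with chromosome 6, and -0.50 and -0.38 with chromosome 17, where the steps were rises of 0.39 (SD 0.11) and 0.43 (SD 0.15). So cells with a deeper drop on chromosome 11 tended to have larger steps on the other chromosomes too, and these values share each cell's library. Cell 180109, flat on chromosome 11, had a chromosome 9 step of -0.05, and cell 180111, with a chromosome 11 difference of -0.18, one of -0.41.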

How the data were processed

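DNA was measured in 150 single cells of 3 tumours of 1 mouse. The submitters' processing notes name BWA 0.7.17 and the mouse build GRCm38. The deposited coverage signal is the mean read depth per base of each bin. The deposited log2 ratio is already corrected by bin. The sources used here do not give its tool or reference, or how cells were amplified. The deposited weight is a score per bin, the same in all cells. The members and gene lists were chosen with earlier results of these data known.

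Every value column mapped to a sample by its cell number. No pair of the cells held identical values. Bins with depth in at least 80% of cells were kept. Noise was the scaled median absolute difference of neighbouring autosomal bins. Cells above 0.2673, which is 3 scaled median absolute deviations over the median noise, were left out, 3 in T1 and 2 in T7. Values were then centred per cell, with the median of all bins on chromosomes 1 to 19 set to 0. A level is the median over a side's bins, and lost or gained means at or past -0.415 or 0.3219. Segments were fitted by least squares, each break costing 3 times the natural log of the bin number in units of the noise variance. The fit was checked on simulated profiles, with steps planted on shuffled bins of real cells whose segment means had been removed. Shuffling removes any trend along the chromosome, so this check does not cover small breaks such as those of T1 and T7. Genes were placed by RefSeq on GRCm38.p6. Listed genes were named when 20% or more of the cells of 1 tumour had them lost or gained, or when first or last of a list, with the genes beside the strongest break. A few others were named for their place before the edge after values were seen, and 1 listed gene is not reported here. The work used Python 3.11.15 with matplotlib 3.10.9, numba 0.67.0, numpy 2.4.6, scipy 1.17.1 and pandas 2.3.3. Each group was 1 tumour, so no test was made.

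Alternatives covered centring, the ratio from depth, filters, thresholds, the penalty and the windows. The ratios from depth divide each bin by its cell's median bin and then by the median over all kept cells or over T7 cells.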

Additional observations from a re-analysis of the deposited data

How the results depend on the processing

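Of 315 alternative values over the 3 tumours, 267 stayed within their spread or interval, 48 moved and no called value changed sign. Part of the 267 could not move. All 4806 autosomal bins passed the bin filter and 0 bins were alike in all tumours, so leaving out either step changed nothing. Another centring shifts a cell's bins alike and cannot move differences or break positions within a cell. The strongest break of a tumour's median profile could have moved with the centring, and it did not in any of the tumours. The only called level was that of T9 after 99 Mb. Values with no call did change sign with the depth ratios, the T1 level after 99 Mb among them and, in T1, the difference between bins with more and fewer genes. For T9 the difference between the sides stayed between -0.62 and -0.51, the level after 99 Mb between -0.57 and -0.47, and the share with a break near 99 Mb between 94% and 100%. With the ratio from depth against all cells, T1 stood at -0.0077 before and 0.25 after 99 Mb, a difference of 0.27, with 0% lost after it, a break in 97.9% of cells and the strongest break of the median profile at 49.6 Mb. T7 then stood at 0.091 after, a difference of 0.088, with 0% lost after, breaks in 93.8%, near 99 Mb in 35.4%, and the strongest break at 98.5 Mb, and T9 had breaks in 100%. That reference holds T9 cells with the loss. Against T7 cells, T1 stood at 0.022 and 0.20, a difference of 0.16, with 0% lost after, breaks in 97.9%, near 99 Mb in 2.13%, and the strongest break at 49.6 Mb. T7 had 0% lost before, breaks in 64.6% and the strongest at 69.6 Mb. Divided at 95 Mb, the T1 difference was 0.0091. With a loss threshold of -0.7, the part after 99 Mb was lost in 8% of T9 cells and in 0% of T1 and T7, and the part before in 0% of T7. A penalty of 2 gave breaks in 89.4% of T1 and 62.5% of T7 cells and near 99 Mb in 20.8% of T7. A penalty of 5 gave 19.1% and 10.4%, and near 99 Mb 2.13% of T1 and 0% of T7. Within 2 Mb of 99 Mb, T1 had 2.13%, and within 10 Mb T1 had 40.4% and T7 12.5%. The following were chosen after seeing the data. Counting only breaks of at least 0.3 left 14.9% of T1 and 10.4% of T7 cells with one and 0% of both near 99 Mb. Calling a loss from the difference between the sides left 0% of T1 and T7. Without cells 180109 and 180116, 100% of T9 cells had a break and 100% one near 99 Mb. The causes of these moves were not tested. Median depth per tumour was 0.0221 to 0.0384 reads per base, and single cells ran from 0.00804 to 0.0675. Segments of at least 10 Mb were a setting made here, and what depth limits was not measured apart from the noise. With 1 tumour per group and 1 mouse, no spread between tumours or animals of a kind is known.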
